A study of Chlamydomonas reinhardtii with 24 samples.

Results

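A set of 100 nuclear genes of the unicellular green alga Chlamydomonas reinhardtii, out of 14621 in the count table, was strongly raised by UV-B in wild type and kept at least 40% of that log2 effect in a strain mutated in CO, a CONSTANS-like transcriptional regulator. The members were selected on the wild type and co libraries. For each gene and genotype, counts were scaled by the library total to CPM (the count per 1000000 counts of the library), and the UV-B effect was the log2 ratio of the mean with UV-B to the mean without it, after adding 0.5 CPM to each. A member had at least 5 CPM with UV-B in wild type, a wild-type effect of at least 2 and a co effect of at least 0.4 of the wild-type one. Both thresholds on wild type were passed by 175 genes. Of these, 64 fell short of the co share and 11 were left out by name, all of which met the thresholds, among them COP1, SPA1 and HY5. The 64 are called strong genes that need CO below, a name for a share under 0.4 and not for a lack of response in co. No member is given a product or a function here, because the annotation tables used hold none for these loci.

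In plants and green algae, UV-B is absorbed by the photoreceptor UVR8, which separates into monomers and binds COP1, the ubiquitin ligase that works with SPA proteins. COP1 and SPA otherwise mark light-signalling transcription factors for degradation, and binding of UVR8 relieves these factors. HY5, a bZIP factor, is the classical output of this pathway in Arabidopsis. In Chlamydomonas, CO is a target of the COP1 and SPA1 complex and drives genes of photoprotection.

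Polyadenylated RNA was sequenced from the strains hy5, uvr8 and co, each 1 mutant strain, and from their background strain CC5325 (WT). The mutant strain names are those of the Chlamydomonas insertion library, so each mutated gene is represented by 1 strain, and rescued lines were not analysed here. Cells grown on acetate under continuous light were moved to minimal medium and then received narrowband UV-B for 1 h (0.2 mW per square centimetre, 311 nm cut-off filter), or were shielded from it by a 360 nm cut-off filter for the same time. Both treatments included white light at 20 µmol photons per square metre and second. Each of the 8 groups held 3 libraries, 24 in all. Nothing in the labels says that the 3 are separate cultures, so the p-values reflect library-to-library spread, which may be technical.

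The libraries held 19267716 to 27686700 counts, and 13613 genes passed the filter on low counts. All 100 members were among them. The level with UV-B in WT, which the selection used, was enough for each to pass, though levels in other groups could count as well. No pair of libraries in a group held the same counts, and within-group pairs differed by 21.7 to 135 times the sampling variance. Scaling by TMM moved the median UV-B effect of all genes by 0.23 on the log2 scale in WT and by 0.08 or less in size in the 3 mutants. In the libraries exposed to UV-B, the HY5 transcript stood at 1.06, 0.900 and 0.866 CPM for hy5, against 102, 132 and 152 CPM for WT. The CO transcript stood at 10.2, 11.7 and 11.1 CPM for co, against 520.2, 598 and 707 CPM for WT. The UVR8 transcript stood at 28.5, 23.0 and 26.5 CPM for uvr8, against 23.6, 22.9 and 24.5 CPM for WT, and without UV-B at 23.6, 23.6 and 24.2 CPM for uvr8, against 41.3, 30.8 and 40.05 CPM for WT. It was thus lower in uvr8 only without UV-B, and does not check that label.

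The members as a whole were high with UV-B in hy5 and WT, at an intermediate level in co, and low in uvr8. Together they accounted for 2.85% to 3.44% of all counts in hy5 libraries with UV-B and 0.452% to 0.517% in hy5 libraries without it. In uvr8 the shares were 0.321% to 0.402% with UV-B and 0.318% to 0.353% without. In co they were 1.22% to 1.47% with UV-B and 0.453% to 0.524% without, and in WT 2.66% to 3.05% with UV-B and 0.439% to 0.564% without. The ranges with and without UV-B were separate in hy5, co and WT and overlapped in uvr8. The libraries are bulk RNA of whole cultures, so more responding cells and more RNA per cell cannot be told apart. The WT and co values chose the members and are given as a description.

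**Figure D1:**
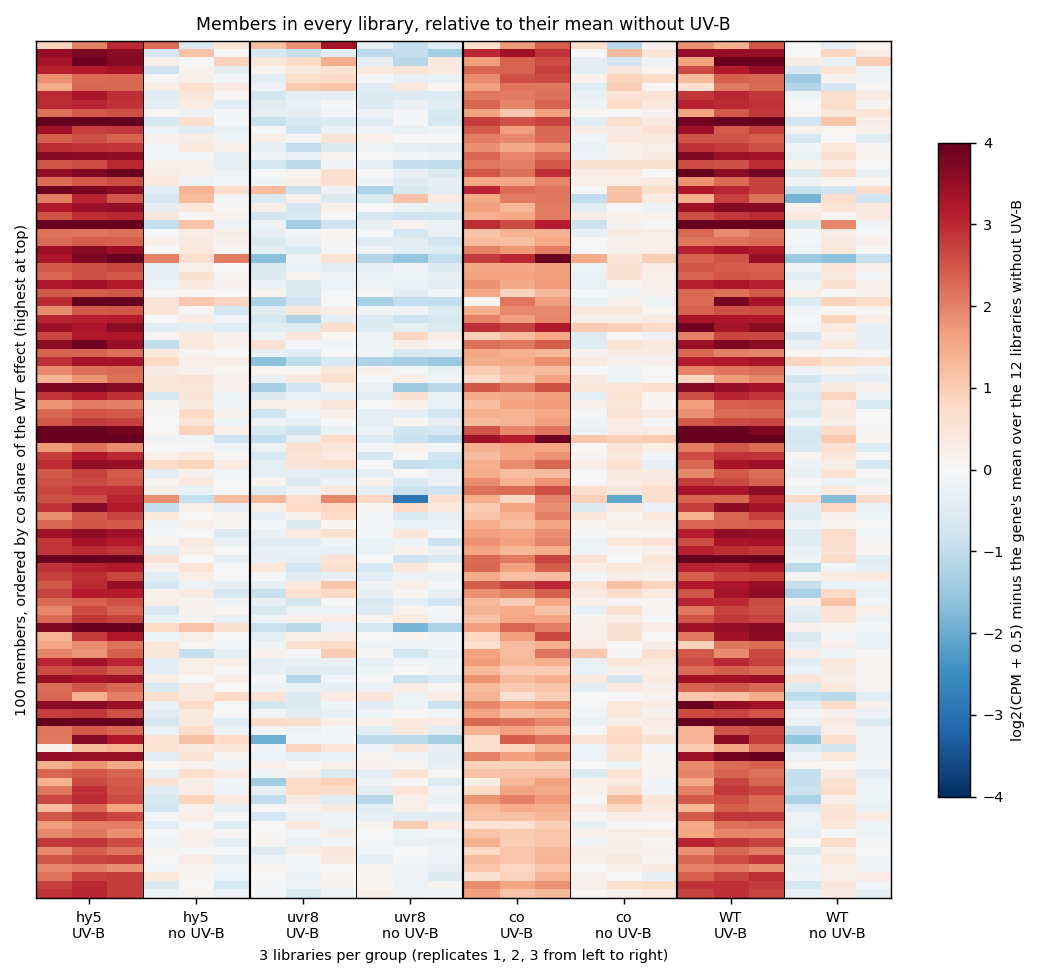
Level of each of the 100 members (rows, ordered by the co share of the WT effect) in each of the 24 libraries (columns, 3 per group), as log2(CPM + 0.5) minus the gene's mean over the 12 libraries without UV-B. Red marks levels above that mean and blue below. The hy5 and WT columns with UV-B are red in nearly every row, the co columns paler, and the uvr8 columns with UV-B are close to white.

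The selection used no hy5 library, and nearly all members rose with UV-B in hy5. Same-numbered libraries of hy5 and uvr8 with UV-B deviated together (correlations of 0.68, 0.57 and 0.49). Such correlations with the WT and co libraries are not given here. The hy5 libraries are thus separate from those that chose the members but may share such deviations with them. In edgeR's quasi-likelihood test with Benjamini-Hochberg adjustment over all genes, 97 of 100 members rose with UV-B in hy5, 0 fell and 3 did not pass. Among all 13613 genes tested, 7.04% rose in hy5. The members' log2 fold changes ran from 0.77 to 6.24 with a median of 2.81, beside a median of 0.00 over all genes, and 92 members changed by at least 2. In 98 members the 3 hy5 libraries with UV-B all lay above the 3 without, which held for 11.2% of all genes.

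Among the members with the smallest adjusted p in hy5, the levels with and without UV-B were far apart. Cre08.g358540 had 844, 986 and 860.0 CPM in hy5 with UV-B, against 76.4, 105 and 81.3 CPM in hy5 without. It had 60.5, 51.5 and 73.7 CPM in uvr8 with UV-B, against 66.5, 58.1 and 54.4 CPM in uvr8 without. The hy5 groups did not overlap and the uvr8 groups did, and the log2 fold change in hy5 was 3.45 (SE 0.19, adjusted p = 5.02e-10). Cre12.g542100 had 186, 239 and 215 CPM in hy5 with UV-B, against 32.0, 39.6 and 31.8 CPM without, a log2 fold change of 2.71 (SE 0.15, adjusted p = 5.02e-10). Its uvr8 libraries held 20.7, 28.0 and 28.9 CPM with UV-B, against 25.9, 23.5 and 23.7 CPM without, so that the uvr8 groups overlapped. The other 6 of the 8 members with the smallest adjusted p were Cre02.g142146, Cre02.g082825, Cre13.g580300, Cre13.g587500, Cre07.g314150 and Cre03.g189800. Their log2 fold changes in hy5 ran from 2.00 in Cre07.g314150 to 4.98 in Cre13.g587500.

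Among the members with the highest CPM with UV-B in WT, hy5 and WT with UV-B were again above co, and co above uvr8. Cre02.g076250 had 4076, 5531 and 5803 CPM in hy5 with UV-B, against 980.2, 741 and 794 CPM in hy5 without. It had 431, 466 and 701 CPM in uvr8 with UV-B, against 467, 417 and 429.6 CPM in uvr8 without. The hy5 groups were separate and its log2 fold change there was 2.69 (SE 0.21, adjusted p = 1.99e-08), while the uvr8 groups overlapped. In co it had 1955, 2044 and 2970.5 CPM with UV-B, against 878, 788 and 789 CPM without. In WT it had 4214, 5039 and 5675 CPM with UV-B, against 951, 774 and 899.8 CPM without. The co libraries with UV-B thus lay between the 2 WT groups, which is part of how the gene was chosen. Cre02.g142146 had 1773, 1998 and 1687 CPM in hy5 with UV-B, against 158, 246 and 211 CPM without, a log2 fold change of 3.24 (SE 0.20, adjusted p = 1.09e-09). In uvr8 it had 154, 125 and 159 CPM with UV-B, against 164, 158 and 142 CPM without, with overlapping groups. Cre07.g335200, Cre12.g485800, Cre13.g562850, Cre09.g411200, Cre06.g251150 and Cre03.g189800, the remaining members of the highest 8, rose in hy5 by 2.19 to 3.09 on the log2 scale.

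The widest UV-B effect among the members in hy5 belonged to Cre08.g384650, which was named after its values were seen, as were the other loci below that the naming rule does not cover. It had 156, 239 and 226 CPM in hy5 with UV-B, against 0.977, 5.83 and 1.97 CPM in hy5 without. It had 1.96, 0.602 and 1.10 CPM in uvr8 with UV-B, against 1.84, 2.76 and 1.88 CPM in uvr8 without. The hy5 libraries with UV-B stood far above all others of these 2 genotypes, and the log2 fold change in hy5 was 6.24 (SE 0.69, adjusted p = 1.77e-06). In co it had 21.8, 17.2 and 24.9 CPM with UV-B, against 1.11, 2.68 and 2.23 CPM without. In WT it had 194, 211 and 196 CPM with UV-B, against 1.33, 10.6 and 2.18 CPM without. The co libraries with UV-B were above those without but well below WT with UV-B. Cre16.g686400 came next, with 86.1, 108 and 121 CPM in hy5 with UV-B, against 2.84, 2.96 and 1.61 CPM without, a log2 fold change of 5.48 (SE 0.46, adjusted p = 4.70e-08).

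**Figure D2:**
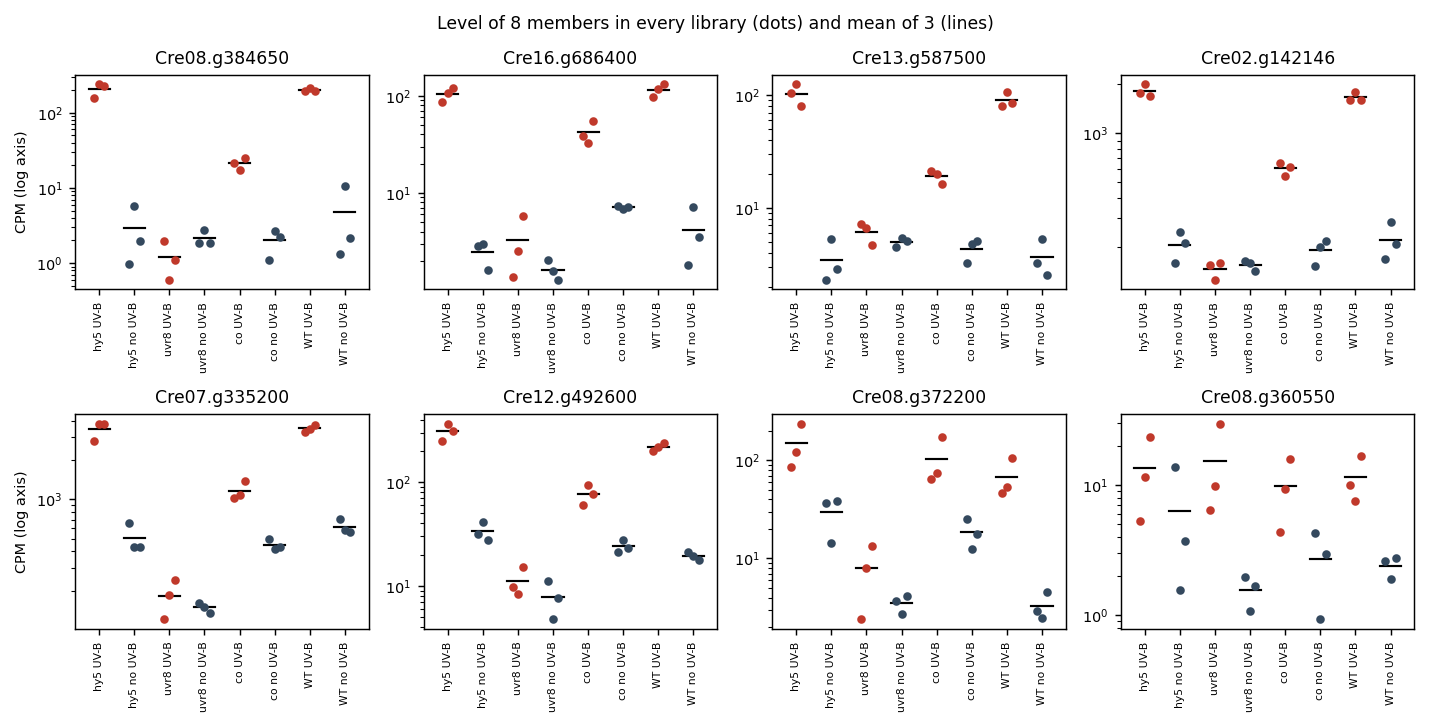
CPM (log axis) of 8 members in every library (dots: red with UV-B, dark blue without) and the mean of 3 (lines), for hy5, uvr8, co and WT. In the first 6 panels hy5 and WT with UV-B stand highest, co with UV-B lies below them and the uvr8 dots stay low, while Cre08.g372200 is highest in hy5 and co, and for Cre08.g360550 the libraries with and without UV-B overlap in hy5 and not in the other 3 genotypes.

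Set side by side with the WT effect, the hy5 effect of most members was of about the same size. The hy5 effect came to a median of 101% of the WT effect, with quartiles of 90.3% and 108% and a range of 27.6% to 127%. It was at or above the WT effect in 51 members and below it in 49, a split that turns with the scaling: in the TMM-scaled edgeR fit 32 members were at or above WT and 68 below, with medians of 2.81 in hy5 and 2.95 in WT. Without TMM scaling, 86 members lay between 0.8 and 1.2 times the WT effect. The 2 members above 1.2 times were Cre12.g485800 at 127% and Cre12.g517700 at 122%. The median effect was 2.65 in hy5, 0.17 in uvr8, 1.41 in co and 2.61 in WT, on the log2 scale with 0.5 CPM added. Because the WT values chose the members, no test of hy5 against WT is given.

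Across the 100 members, the effects in hy5 and WT ranked the genes alike, with Pearson's r = 0.84 and Spearman's rho = 0.84. The hy5 and co effects gave r = 0.72 and rho = 0.70, the uvr8 and WT effects r = 0.01, and the uvr8 and co effects r = 0.15. These are descriptions across genes, which are not independent, of libraries that share replicate numbers between genotypes. The hy5 effect exceeded the co effect in 96 members. The exceptions were Cre08.g372200, Cre01.g031650, Cre08.g360550 and Cre03.g200450.

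**Figure D3:**
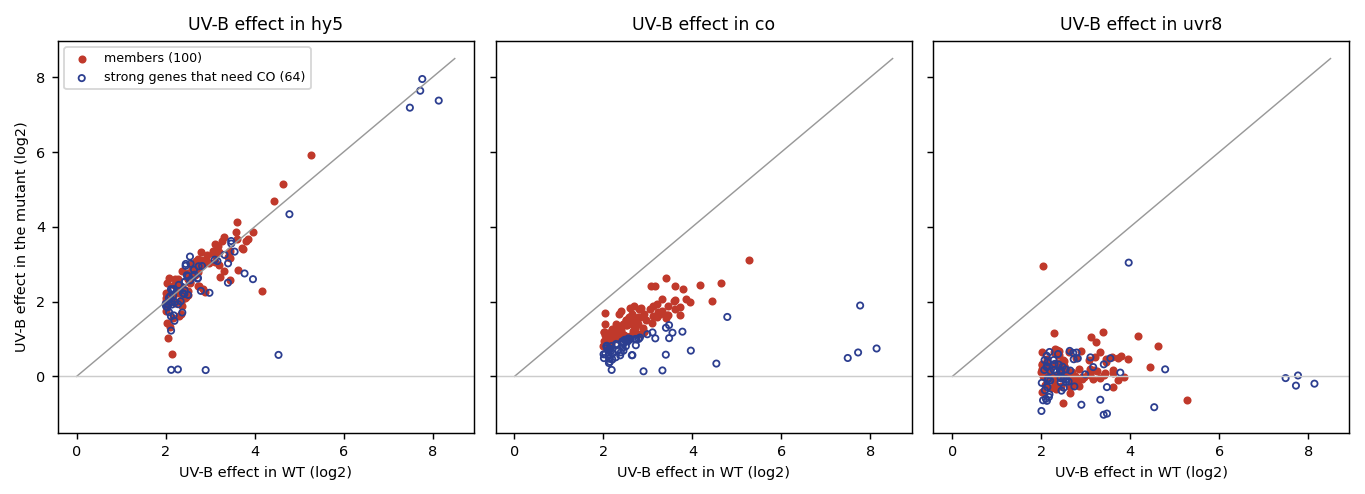
UV-B effect (log2, 0.5 CPM added) in hy5, co and uvr8 (vertical axes) against that in WT (horizontal axes), for the 100 members (red, filled) and the 64 strong genes that need CO (blue, open); the grey diagonal marks equal effects. In hy5, 86 members lie between 0.8 and 1.2 times the WT effect and 12 below that, and of the genes that need CO 48 lie in that range and 13 below it. In co all members lie below the diagonal, at up to 82.5% of the WT effect, with the 2 sets separated at 40% by the rule, and the uvr8 effects of the members lie between -0.72 and 2.94 with a median of 0.17.

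In co, the share of the WT effect that members kept ran from 40.0% to 82.5% with a median of 53.2%. The share was under 0.5 in 39 members, between 0.5 and 0.6 in 40 and at 0.6 or more in 21. The highest shares belonged to Cre08.g360550 at 82.5%, Cre12.g492650 at 78.2%, Cre13.g801530 at 77.8%, Cre13.g571560 at 76.4% and Cre06.g290000 at 73.5%. The shares of Cre08.g360550 and Cre13.g801530 rest on libraries that differ widely. In co, Cre08.g360550 had 4.37 CPM in its lowest library with UV-B and 4.25 CPM in its highest without. In WT with UV-B, Cre13.g801530 had 5.94, 38.0 and 44.9 CPM. In the same fit 85 members passed in co and 99 in WT, where 1.65% and 10.6% of all genes rose. Nothing is read from these counts, because both contrasts were used to choose the genes.

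The values beside each threshold were close together. Just inside the WT threshold of 2 were Cre12.g537850 at 2.00, Cre12.g531200 at 2.01 and Cre08.g379550 at 2.02, and just outside were Cre03.g205900 at 1.99, Cre08.g372300 at 1.99 and Cre13.g578451 at 1.96. For the co share, Cre09.g411200 at 40.03%, Cre14.g610850 at 40.4% and Cre14.g801652 at 40.5% were inside, and Cre02.g088500 at 39.7%, Cre02.g082865 at 39.6% and Cre12.g537550 at 39.5% were outside. For the CPM minimum, Cre03.g200450 at 5.64 CPM and Cre02.g112800 at 6.72 CPM were inside, and Cre15.g636950 at 4.78 CPM and Cre16.g678325 at 4.74 CPM were outside. With a co share of 0.5 the set held 61 genes.

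In uvr8 no member passed the test for a UV-B effect. EdgeR's quasi-likelihood test with Benjamini-Hochberg adjustment called 0 of 100 members, and 0% of all genes tested. At an unadjusted p under 0.05 there were 10 members, 8 of them higher with UV-B, beside 8.88% of all genes. DESeq2 called 1 member, Cre08.g360550, beside 0.0966% of all genes. The members' log2 fold changes in uvr8 had a median of 0.10, beside 0.01 over all genes, and ran from -0.85 to 3.18, with 75 members within 0.5 of 0. The groups with UV-B stood wholly above those without in 4 members, against 8.87% of all genes.

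The uvr8 libraries differed by replicate number. With UV-B set against the same-numbered library without it, 41, 47 and 79 of the 100 members were higher in numbers 1, 2 and 3, with median log2 ratios of -0.07, -0.03 and 0.49. Number 3 was thus the only number at which most members stood higher with UV-B. Same-numbered libraries with and without UV-B did not count as paired in uvr8 or hy5, so each ratio only sets 1 library beside another. The members' median level in uvr8 libraries 1, 2 and 3 was 9.35, 10.9 and 13.0 CPM with UV-B, and 9.72, 10.2 and 8.94 CPM without. Over all genes tested the median log2 ratios in uvr8 were 0.01, 0.09 and 0.11. In hy5 98, 100 and 100 members were higher with UV-B, with medians of 2.59, 2.62 and 2.85. Without the libraries numbered 1, 11 members passed in uvr8, 9 of them higher with UV-B and 2 lower, beside 11.6% of all genes.

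**Figure D4:**
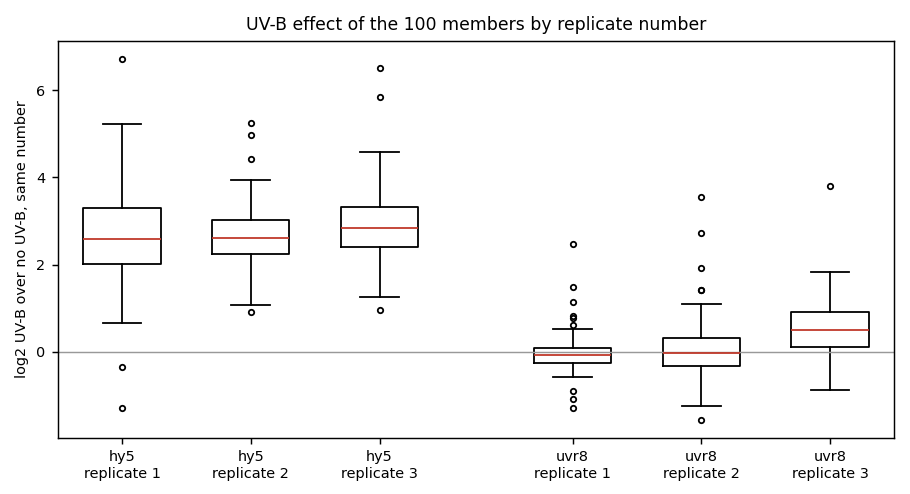
UV-B effect of the 100 members (log2 ratio of the library with UV-B to the same-numbered library without it) by replicate number, for hy5 (left) and uvr8 (right). Same-numbered libraries with and without UV-B did not count as paired. Boxes span the quartiles, red lines are medians, whiskers reach the last value within 1.5 box lengths and circles lie beyond; the hy5 medians are 2.59, 2.62 and 2.85 and the uvr8 medians -0.07, -0.03 and 0.49.

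Tested directly, the UV-B effect was larger in hy5 than in uvr8 for 86 of 100 members and smaller for 0 (edgeR's quasi-likelihood test of the difference, Benjamini-Hochberg adjustment). Among all genes tested, 3.89% had a larger effect in hy5. The difference had a median of 2.76 and a range of -2.06 to 7.09 on the log2 scale, and it was above 0 in 99 members. For Cre08.g358540 the difference was 3.46 (SE 0.25, adjusted p = 8.31e-08), for Cre12.g542100 it was 2.71 (SE 0.20, adjusted p = 1.30e-07) and for Cre02.g076250 it was 2.49 (SE 0.29, adjusted p = 9.41e-06).

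Of the 14 members whose difference did not pass, 11 rose in hy5. With the replicate number as a block in the fit, 7 of the 14 passed, Cre02.g112800, Cre04.g215400, Cre06.g290000, Cre10.g428000, Cre12.g531200, Cre12.g533150 and Cre13.g801530, beside all of the 86. DESeq2 called 4 of these 7, Cre02.g112800, Cre06.g290000, Cre10.g428000 and Cre12.g531200. The difference contains the uvr8 effect, so the 14 were split off in part by that effect, and their uvr8 values are given as a description. Their uvr8 log2 fold changes ran from -0.08 to 3.18 with a median of 0.66 and were above 0 in 13, while those of the 86 others ran from -0.85 to 0.91 with a median of 0.06. Between the uvr8 libraries numbered 3, which did not count as paired, all 14 were higher with UV-B, at a median log2 ratio of 1.03. Of the 86 others, 65 were higher, and the median over the 86 was 0.41. The 14 were Cre16.g681400, Cre04.g215400, Cre12.g533150, Cre03.g207800, Cre08.g372200, Cre12.g531200, Cre02.g086100, Cre13.g801530, Cre06.g290000, Cre10.g428000, Cre01.g031650, Cre08.g360550, Cre02.g112800 and Cre03.g200450.

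**Figure D5:**
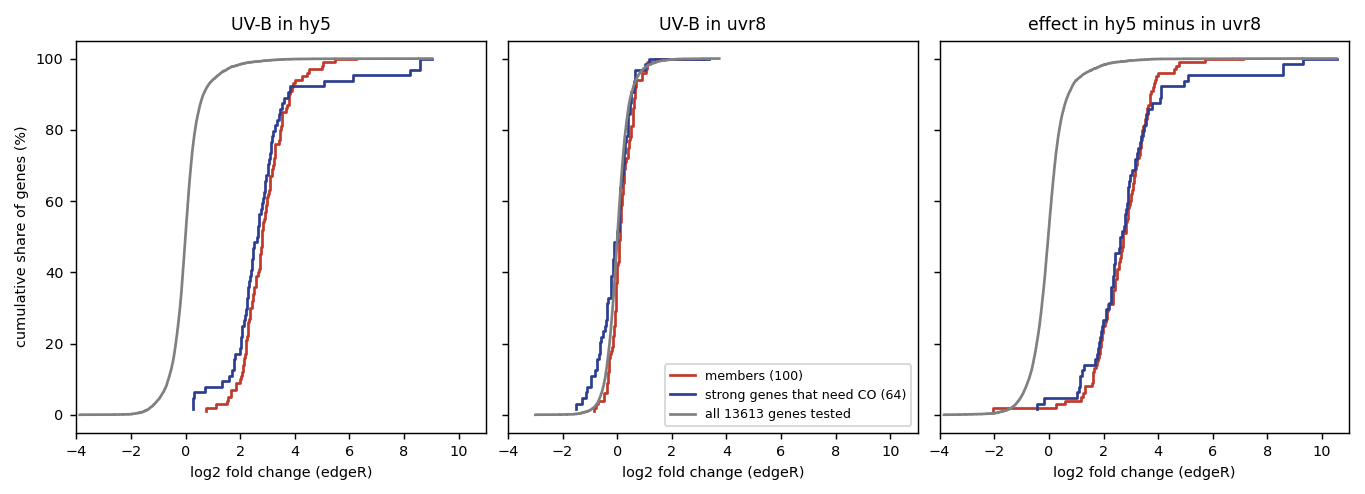
Cumulative share of genes (vertical axes, %) at or below each log2 fold change (horizontal axes, edgeR) for UV-B in hy5, UV-B in uvr8, and the effect in hy5 minus that in uvr8. The members (red) and the strong genes that need CO (blue) lie to the right of all 13613 genes (grey) in the left and right panels, with member medians of 2.81 and 2.76, and close to the grey line in the middle one, with a member median of 0.10.

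Cre08.g360550 departed most from the other members in uvr8. It had 5.25, 11.6 and 23.6 CPM in hy5 with UV-B, against 13.7, 1.54 and 3.74 CPM in hy5 without. It had 6.42, 9.92 and 29.7 CPM in uvr8 with UV-B, against 1.96, 1.08 and 1.66 CPM in uvr8 without. The groups overlapped in hy5 and were separate in uvr8, where library 3 with UV-B was well above the other 2. In co it had 4.37, 9.28 and 15.8 CPM with UV-B, against 4.25, 0.932 and 2.94 CPM without, and in WT 10.1, 7.55 and 16.8 CPM with UV-B, against 2.58, 1.90 and 2.73 CPM without. The library numbered 3 with UV-B was the highest of its group in all 4 genotypes. The log2 fold change in uvr8 was 3.18 (SE 0.71, adjusted p = 0.0147 in DESeq2), a call that edgeR did not make. In hy5 it was 1.12 (SE 0.72, adjusted p = 0.427), and it passed there without the libraries numbered 1, at 2.83 (adjusted p = 0.0202). The effect in hy5 minus that in uvr8 was -2.06 (SE 1.04, adjusted p = 0.433).

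The other 2 members that did not pass in hy5 were Cre16.g681400 and Cre03.g200450. Cre16.g681400 had 202, 206 and 285 CPM in hy5 with UV-B, against 127, 17.6 and 81.8 CPM in hy5 without. It had 87.7, 53.9 and 130.5 CPM in uvr8 with UV-B, against 60.8, 4.15 and 55.3 CPM in uvr8 without. The hy5 groups did not overlap, and the library numbered 2 without UV-B was the lowest of its group in both genotypes. The same library number was lowest in co without UV-B, at 7.73 CPM beside 66.5 and 52.9, and in WT without UV-B, at 9.93 CPM beside 58.9 and 57.2. Its log2 fold change in hy5 was 1.67 (SE 0.86, adjusted p = 0.285). With the replicate number as a block it was 2.18 (adjusted p = 0.0110), and without the libraries numbered 2 it was 1.28 (adjusted p = 0.0223). Cre03.g200450, the member with the lowest WT level with UV-B, had 1.65, 4.05 and 4.51 CPM in hy5 with UV-B, against 2.26, 1.94 and 2.08 CPM without, with overlapping groups and a log2 fold change of 0.77 (SE 0.40, adjusted p = 0.287).

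The remaining 2 of the 5 smallest log2 fold changes in hy5 were those of Cre02.g112800 and Cre10.g428000, which passed. Cre02.g112800 had 14.1, 7.70 and 11.6 CPM in hy5 with UV-B, against 4.40, 3.40 and 4.57 CPM without, a log2 fold change of 1.52 (SE 0.35, adjusted p = 0.00568). Cre10.g428000 had 16.2, 21.6 and 29.2 CPM in hy5 with UV-B, against 8.30, 8.69 and 6.85 CPM without, a log2 fold change of 1.57 (SE 0.27, adjusted p = 0.000434). Both were separate between the hy5 groups. Without the libraries numbered 3 neither passed, at a log2 fold change of 1.57 for Cre02.g112800 (adjusted p = 0.244) and 1.23 for Cre10.g428000 (adjusted p = 0.0572).

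Without UV-B, few members differed between hy5 and uvr8. In edgeR's quasi-likelihood test with Benjamini-Hochberg adjustment, 7 members were higher in hy5, 1 was lower and 92 did not pass, beside 0.97% of all genes higher and 2.39% lower. The median difference was 0.19 over the members and 0.01 over all genes. Same-numbered libraries without UV-B deviated together in hy5 and uvr8. A fit with a replicate block called 14 members, 11 higher and 3 lower, beside 1403 of all 13613 genes in either direction. Over all genes the main fit called 458, so the count rose there as well. The count of members fell to 4 without hy5 library 3, to 3 without uvr8 library 2 and to 4 without uvr8 library 3. Beside these, 133 of 13671, 123 of 13661 and 194 of 13674 genes passed. Without the libraries numbered 2 or 3, 0 members passed, beside 15 of 13608 and 13 of 13619 genes.

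Cre07.g335200 had 658, 435 and 431 CPM in hy5 without UV-B, against 161, 151 and 135 CPM in uvr8 without. The ranges were well apart, and the log2 difference was 1.63 (SE 0.23, adjusted p = 0.000527). With UV-B it had 2786, 3798 and 3739.9 CPM in hy5, against 121, 185 and 242 CPM in uvr8. In co it had 1028, 1069 and 1383 CPM with UV-B, against 493, 414 and 428 CPM without, and in WT 3301, 3451 and 3714 CPM with UV-B, against 705, 586 and 561 CPM without. Without UV-B, uvr8 thus had the 3 lowest libraries of the 12 for this gene. Cre12.g492600 had 31.8, 41.7 and 27.6 CPM in hy5 without UV-B, against 11.1, 4.79 and 7.59 CPM in uvr8, a log2 difference of 1.93 (SE 0.27, adjusted p = 0.000505). Cre03.g189800 had 223, 247 and 218 CPM in hy5 without UV-B, against 135, 139 and 114 CPM in uvr8, a log2 difference of 0.67 (SE 0.14, adjusted p = 0.0114).

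Cre08.g372200 was high without UV-B in hy5 and co. It had 36.9, 14.4 and 38.8 CPM in hy5 without UV-B, against 3.67, 2.72 and 4.18 CPM in uvr8, a log2 difference of 2.95 (SE 0.57, adjusted p = 0.00677). In co without UV-B it had 25.3, 12.5 and 18.0 CPM, against 2.92, 2.49 and 4.53 CPM in WT. The hy5 and co libraries without UV-B were thus all above the uvr8 and WT ones. With UV-B it had 86.6, 123 and 238 CPM in hy5, 2.42, 8.02 and 13.4 CPM in uvr8, 64.4, 75.0 and 172 CPM in co and 47.1, 53.0 and 105 CPM in WT. The library numbered 3 was the highest of its group with UV-B in every genotype. The UV-B effect in hy5 was 2.38 on the log2 scale in the edgeR fit (SE 0.54, adjusted p = 0.00594). From unscaled CPM with 0.5 added, it was 2.29 in hy5 and 4.18 in WT, a share of 54.9%. The edgeR log2 fold change was 2.15 without the libraries numbered 2 (adjusted p = 0.109) and 2.07 without those numbered 3 (adjusted p = 0.102), where it did not pass.

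The other members higher in hy5 than in uvr8 without UV-B were Cre14.g615550 at a log2 difference of 2.14, Cre12.g492650 at 1.31 and Cre02.g076250 at 0.79. The member lower in hy5 was Cre08.g379550, with 24.5, 30.9 and 23.1 CPM in hy5 without UV-B, against 35.4, 65.4 and 41.1 CPM in uvr8. These groups did not overlap, and the log2 difference was -0.999 (SE 0.22, adjusted p = 0.0145).

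Some members lay beside each other. Of the 100 members, 96 had an entry in the RefSeq gene table of assembly v5.5, which was used only for the order of genes. In that order 4 pairs of members were direct neighbours and 7 pairs had at most 2 genes between them, together 14 members. Among the 64 strong genes that need CO, 63 had an entry and gave 1 and 2 such pairs. A larger set gives more pairs by its size alone, and the number expected for genes taken at random was not computed. The counts of the 2 sets are therefore not compared. The direct neighbours were Cre12.g492600 and Cre12.g492650, Cre13.g587450 and Cre13.g587500, Cre16.g686350 and Cre16.g686400, and Cre03.g145567 and Cre03.g145587. Whether neighbours are near-identical copies that share reads could not be checked with the tables used here.

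The members of these 4 pairs all rose in hy5, by different amounts. Cre16.g686350 had 23.1, 20.9 and 26.8 CPM in hy5 with UV-B, against 1.15, 1.19 and 1.09 CPM without, and its effect was 3.87 in hy5, 0.51 in uvr8, 2.03 in co and 3.59 in WT. The effects of Cre16.g686400 beside it were 5.15 in hy5, 0.82 in uvr8, 2.49 in co and 4.63 in WT. Cre13.g587500 had 104, 125 and 80.5 CPM in hy5 with UV-B, against 2.31, 5.30 and 2.85 CPM without, and Cre13.g587450 had 52.7, 79.7 and 73.5 CPM with UV-B, against 8.75, 11.6 and 8.36 CPM without. The effect of Cre13.g587500 was 4.70 in hy5 and that of Cre13.g587450 was 2.78, with 0.26 and 0.01 in uvr8. For Cre03.g145567 and Cre03.g145587 the effects were 3.61 and 3.86 in hy5, 0.55 and 0.45 in uvr8, 2.32 and 2.00 in co and 3.80 and 3.95 in WT. For Cre12.g492600 and Cre12.g492650 they were 3.18 and 3.29 in hy5, 0.47 and 0.44 in uvr8, 1.65 and 2.41 in co and 3.46 and 3.08 in WT.

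The strong genes that need CO were set beside the members for the comparisons that the selection did not use. Their UV-B effects in co, which the selection used, were small but all above 0, from 0.14 to 1.90 on the log2 scale. They came to a median of 32.2% of the WT effect and at most 39.7%. Of these 64 genes, 60 rose in hy5, 0 passed in uvr8 and 49 had a larger effect in hy5 than in uvr8, against 97, 0 and 86 of the 100 members. Their hy5 effect had a median of 2.39 and came to a median of 96.1% of the WT effect, against 2.65 and 101% for the members. Without UV-B, 1 of the 64 was higher and 4 were lower in hy5 than in uvr8, against 7 and 1 of the members. Whether the sets differ in these measures was not tested.

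The 5 genes of the UVR8 pathway were taken as UVR8 (Cre05.g230600), COP1 (Cre02.g085050), SPA1 (Cre13.g602700), CO (Cre06.g278159) and HY5 (Cre06.g310500). These names come from general knowledge of the loci, since the tables used here hold no symbols to check them. Of the 5, 2 rose with UV-B in hy5 and 0 passed in uvr8, beside 7.04% and 0% of all genes tested. HY5 is the gene mutated in hy5, so that strain cannot show its rise. Its mean there was 0.943 CPM with UV-B and 0.894 CPM without. Its effect from unscaled CPM with 0.5 added was 3.96 in WT and 2.78 in co, in contrasts that the selection used. COP1, the ubiquitin ligase that UVR8 binds, had 66.0, 69.6 and 75.3 CPM in hy5 with UV-B, against 10.3, 14.96 and 10.54 CPM without, a log2 fold change of 2.65 (adjusted p = 4.02e-08). SPA1, its partner, rose in hy5 by 2.52 on the log2 scale (adjusted p = 9.68e-09). Both met the thresholds of the selection and were left out of the members by name. In uvr8 their log2 fold changes were -0.02 for COP1 and -0.41 for SPA1, and neither passed.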

How the data were processed

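Groups and replicate numbers were taken from the sample titles. The authors deposited 1 table of raw counts per gene, not normalized, with annotation version 6.1 in its identifiers. The tools listed in the submitters' processing notes, without their roles, are STAR 2.7.10b, HTSeq 0.11.3, bcl2fastq 2.20.0 and edgeR 3.42.4. No source used here states the strand setting or how reads matching several places were treated, so counts of overlapping genes and near-identical copies are uncertain.

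CPM values were computed as count over library total and are not corrected for gene length. Genes at 0 in every library (126) and those that failed filterByExpr (minimum count of 10, minimum total of 15) were left out. Counts were scaled by TMM (factors 0.670 to 1.20) and fitted over all 24 libraries, 1 mean per group, with edgeR 4.0.16 (quasi-likelihood F test, limma 3.58.1, R 4.3.3), and DESeq2 1.42.0 was an alternative. P-values were adjusted by Benjamini-Hochberg over 13613 genes and called under 0.05. The SE is the log2 fold change divided by the square root of F. Tested on simulated counts for hy5 (13372 genes), 2 of 140 calls were false, and the fit found 45% of the 2-fold changes and 93% of the 4-fold ones. For the effect in hy5 minus that in uvr8, 4 of 93 calls were false, and 14% of 2-fold and 75% of 4-fold differences were found. The simulated counts were drawn independently for each library from 1 mean per gene, with changes put only into hy5 with UV-B. Real libraries of the same number shared deviations, so these shares of false calls cannot be carried over to them.

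The members and lists were chosen with earlier results of these data known. Named members are the 8 with the highest WT level with UV-B, the 8 with the smallest adjusted p and the 5 with the smallest change in hy5, up to 4 by p for hy5 against uvr8 without UV-B, those beside each threshold and the pathway genes. Others are said to be chosen after their values were seen. Same-numbered libraries counted as paired where all 3 correlations of deviations from the group means exceeded 0.1. This held for hy5 against uvr8 without UV-B (0.63, 0.65 and 0.27) and with it (0.68, 0.57 and 0.49). It did not for UV-B in hy5 (0.06, 0.66 and -0.34) or in uvr8 (0.09, 0.66 and -0.16).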

Additional observations from a re-analysis of the deposited data

Results flagged for a closer look

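The UV-B effect differed between hy5 and uvr8 in 86 members (edgeR's quasi-likelihood test of the difference, Benjamini-Hochberg adjustment over all genes), larger in hy5 in each. It was larger in hy5 in 3.89% of all genes tested, and in 49 of the 64 strong genes that need CO. The 4 widest differences were 7.09 for Cre08.g384650 (SE 0.91, adjusted p = 2.77e-05), 5.72 for Cre01.g021800 (SE 1.26, adjusted p = 0.00793), 4.75 for Cre13.g587500 (SE 0.40, adjusted p = 2.73e-07) and 4.66 for Cre17.g731050 (SE 0.49, adjusted p = 2.27e-06), all on the log2 scale. The value of Cre01.g021800 rests on few counts. It had 202, 159 and 158 counts in hy5 with UV-B, against 0, 11 and 4 in hy5 without, and 2, 1 and 2 counts in uvr8 with UV-B, against 5, 3 and 0 in uvr8 without. Cre17.g731050 had 194, 215 and 199.7 CPM in hy5 with UV-B, against 6.66, 16.7 and 10.2 CPM in hy5 without, and 5.46, 6.72 and 6.97 CPM in uvr8 with UV-B, against 7.31, 9.98 and 6.40 CPM in uvr8 without.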

How the results depend on the processing

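The count of members that rose in hy5 was 97 under DESeq2, RLE scaling, no count filter and a fit of only the libraries compared, and 98 with a replicate block. It was 96 to 97 without one library and 86 to 98 without one replicate number. The count in uvr8 was 0 under RLE scaling, no count filter, the libraries compared alone, the replicate block and without any one library. It was 1 in DESeq2, beside 0.0966% of all genes, and 0 to 11 without one replicate number. The value of 11 was that without number 1, where 11.6% of all genes passed. The count with a larger effect in hy5 than in uvr8 was 86 to 90 under the other settings, 93 with the replicate block, 80 to 86 without one library and 65 to 88 without one replicate number. The count differing without UV-B was 13 in DESeq2 (beside 840 of 14495 genes). It was 4 with only the libraries compared (116 of 13317 genes) and 14 with the replicate block (1403 of 13613). It was 3 to 8 without one library and 0 to 13 without one replicate number. The value was 13 without number 1 (706 of 13639 genes) and 0 without number 2 (15 of 13608) or 3 (13 of 13619). In these settings the count over all genes moved with that over the members. The block changed no other count by over 1.5 times. The number of members was 111 with TMM-scaled CPM (86 shared), 137 and 61 with a co share of 0.3 and 0.5, 90 with a pseudocount of 1, 85 to 117 without one library and 93 to 128 without one replicate number. For Cre03.g200450 the effect in hy5 minus that in uvr8 was -0.05 without the libraries numbered 2 and -0.12 without uvr8 library 2 of those without UV-B, against 0.27 with all libraries. Its range was -0.12 to 0.59 without one library or number, and the cause was not tested. Depth limits the members of few CPM, such as Cre03.g200450, with 15 to 180 counts per library.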
